A study of Canis lupus familiaris with 33 samples.

Results

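Smooth muscle contractile genes are the genes through which a smooth muscle cell builds its actin and myosin filaments, anchors them to the membrane, and receives the signals that make it shorten. Of 38 gene names chosen for these functions, 35 were found by symbol among the 25096 genes of the table analysed here, and all 35 passed the filter on low values. A further gene of the 38, CNN1, has a row without a symbol and was matched by its Entrez identifier only, so it is described apart and left out of every count. The remaining 2, PPP1R14A and PDLIM7, were not analysed here.

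The genes were measured by RNA sequencing in canine bladder. The normal group (n = 4, normals A to D) is bladder mucosa whose urothelial layer was dissected from dogs euthanized for diseases outside the bladder. The tumor group (n = 29, tumors 1 to 29) is invasive urothelial carcinoma (iUC), a malignant tumor of the bladder lining, biopsied by cystoscopy from untreated dogs, with 1 tumor per dog and all tumors of high grade. By the study's methods the tumors were nearly wholly epithelial in cellularity, and how deep they invaded the wall could not always be judged from the small biopsies. The labels name no engineered allele, agent, strain or age for either group. Every value is the log2 of a TMM-normalized expression level (TMM scales each library by a trimmed mean of its gene ratios) minus the median of that gene over the 33 samples. A value of 0 is therefore the median sample, a difference of 1 is 2-fold, and values show how samples differ in a gene but not which gene is more abundant. The total count of each sample is unknown.

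In smooth muscle, calcium entering through the membrane or released from stores activates myosin light chain kinase, and the phosphorylated myosin pulls on actin until a phosphatase reverses the step. The actin filaments end in dense plaques at the membrane, and the serum response factor with its cofactor myocardin switches on many of the genes involved. In the bladder this tissue forms the detrusor, the muscle that empties the organ under cholinergic and purinergic nerves. Thinner bundles lie in the mucosa, and smooth muscle also surrounds the vessels. The urothelium, which the labels give as the cell type of the normal samples and from which iUC arises, is an epithelium and is not known for a contractile program of this kind.

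Several libraries stood apart from the rest of their group. The labels of the normals name both bladder mucosa and urothelial cells, and the contractile genes were high in all 4 of them. UPK2, a uroplakin of the urothelial surface, was 0.38, 0.35, 0.36 and -2.14 in normals A to D. Normal D therefore lay far below the other normals in this gene. Between 755 and 1019 genes sat at their lowest value in a normal, against 3699 to 8175 in a tumor. Among the tumors, the labels of tumors 15 and 29 begin with the same number, as do those of tumors 10 and 11. The deviations of tumors 15 and 29 from the tumor mean had a Pearson's r of 0.578 across genes, the highest of 406 pairs of tumors (median -0.05), and that of tumors 10 and 11 was -0.12. Genes are not independent replicates, and whether these are related samples was not tested. Leaving both out changed no call among the fold changes of the 56 genes tested for this, and values without both are given where they bear on a result below.

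The contractile genes were much lower in the tumors. Of the 35 genes, 32 were called lower (limma, a change of 2-fold or more with a Benjamini-Hochberg adjusted p over 24471 genes no higher than 0.05), where 45.8% of all genes tested were called lower. The integrin gene ITGA7 was the 1 gene called higher, where 10.7% of all genes were, and SLMAP and SRF were not called. The median log2 fold change of the 35 genes was -3.72, beside -0.84 over all genes tested, and it was -3.87 without tumors 15 and 29. In 26 of the 35 genes every tumor lay below every normal, which holds for 28.5% of all genes tested. In these bulk samples, fewer cells of a type and less RNA per cell cannot be told apart. The normals were dissected and the tumors biopsied by cystoscopy, so the way of collection cannot be told apart from tumor status.

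**Figure D1:**
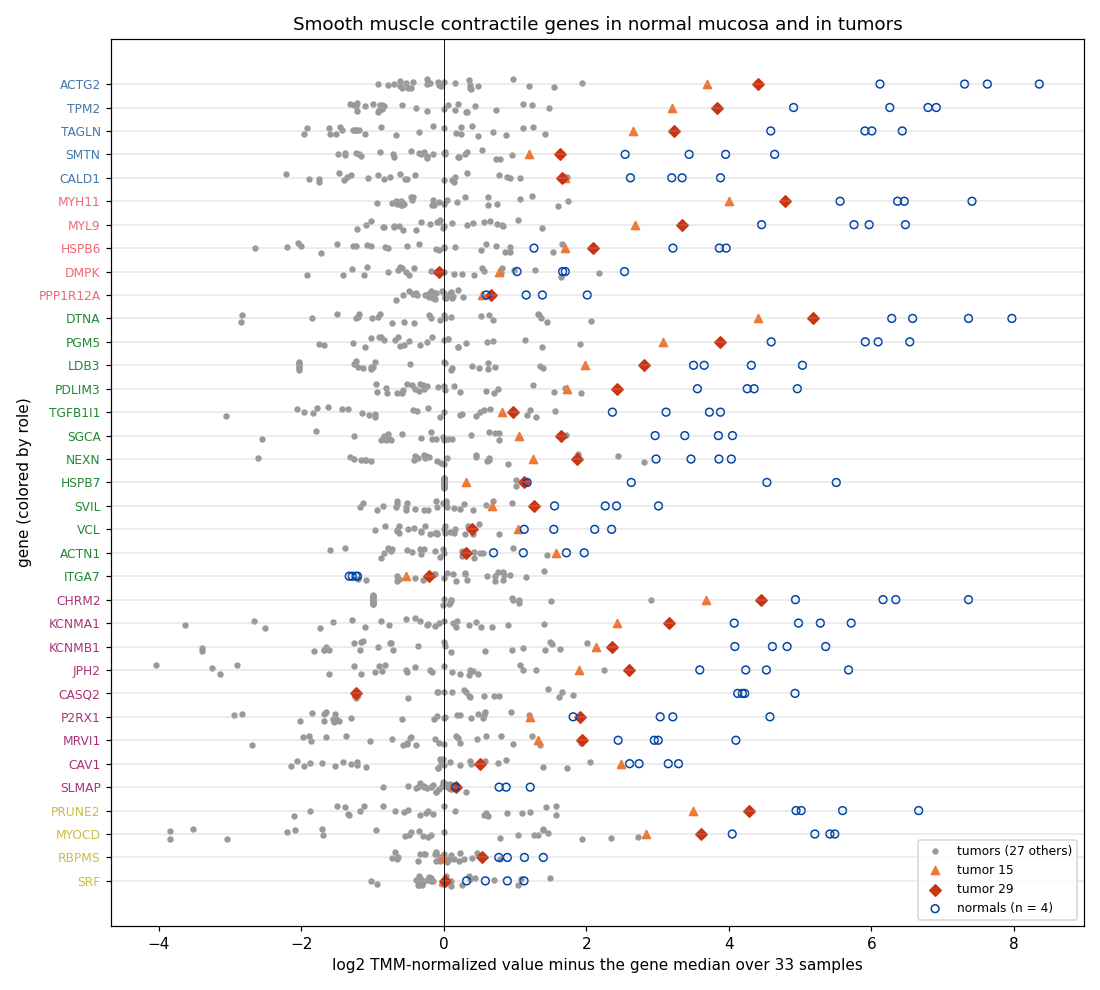
Value of each contractile gene in every library, as the centred log2 TMM-normalized value, grouped by role. Open circles are the 4 normals, gray points 27 tumors, the triangle tumor 15 and the diamond tumor 29; in 26 genes every tumor lies left of every normal, and tumors 15 and 29 are often the nearest to the normals.

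All 5 thin filament genes were called lower in tumors, with a median log2 fold change of -5.97, and in each every tumor lay below every normal. ACTG2, the gamma actin of visceral smooth muscle, was 6.12, 7.63, 7.31 and 8.36 in normals A to D, and ran from -0.92 to 4.41 in tumors, with a median of -0.07. The highest tumor, tumor 29, still lay below the lowest normal, normal A. Its log2 fold change was -7.05 (standard error 0.64, adjusted p = 6.91e-12), which is 132-fold lower on average, and -7.33 without tumors 15 and 29. The actin genes are nearly identical in their coding sequence, and how reads shared among them were assigned is not given in the sources used here.

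TPM2 encodes beta-tropomyosin, which lies along the actin filament. It was 4.91, 6.26, 6.80 and 6.91 in the normals, and from -1.32 to 3.84 in tumors (median -0.39). The groups did not overlap, and the log2 fold change was -6.28 (SE 0.65, adjusted p = 1.64e-10). TAGLN, or transgelin, cross-links actin and is an early marker of the smooth muscle lineage. In the normals it was 4.59, 5.91, 6.01 and 6.43, and in the tumors it ran from -1.96 to 3.23 with a median of -0.35. Here too normal A was the lowest normal and tumor 29 the highest tumor, and the log2 fold change was -5.97 (SE 0.67, adjusted p = 1.17e-09).

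The other thin filament genes fell by less. SMTN, or smoothelin, marks fully contractile smooth muscle, and was 2.55, 3.44, 3.96 and 4.64 in the normals against -1.49 to 1.63 in tumors (median -0.23). CALD1, or caldesmon, restrains the actin and myosin interaction and has a shorter form in many other cell types. It was 2.62, 3.34, 3.20 and 3.88 in the normals and -2.22 to 1.72 in tumors, with a median of -0.52. The log2 fold changes were -3.83 for SMTN (SE 0.43, adjusted p = 1.01e-09) and -3.53 for CALD1 (SE 0.59, adjusted p = 2.89e-06). CALD1 was highest in tumor 25, at 1.72, and nearly as high in tumors 15 and 29, at 1.71 and 1.65. CNN1, or calponin 1, a further inhibitor on the thin filament, was 6.14, 7.39, 7.28 and 8.51 in the normals. In the tumors it ran from -0.88 to 4.66 (median -0.04), with a log2 fold change of -7.01 (SE 0.65, adjusted p = 1.32e-11), and -7.30 without tumors 15 and 29. Its size was close to that of ACTG2, but the difference between these genes was not tested.

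The 5 genes of the thick filament and its phosphatase control were all called lower, with a median of -3.34. MYH11, the myosin heavy chain of smooth muscle, was 5.56, 6.46, 6.37 and 7.41 in the normals. In tumors it ran from -0.93 to 4.79 around a median of -0.14. Tumors 29 and 15 were at 4.79 and 4.01 and the next, tumor 25, at 1.74, so that these 2 tumors stood apart from the other 27. The log2 fold change was -6.13 (SE 0.67, adjusted p = 7.12e-10), or 70.2-fold lower, and -6.44 without tumors 15 and 29. MYL9, the regulatory light chain that the kinase phosphorylates, was 4.46, 5.76, 5.97 and 6.48 in the normals and -1.22 to 3.34 in tumors (median -0.06). The groups were separate, with a log2 fold change of -5.52 (SE 0.54, adjusted p = 3.95e-11).

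The regulators of the thick filament overlapped between the groups. HSPB6, a small heat shock protein linked to muscle relaxation, was 1.27 in normal A but 3.96, 3.22 and 3.87 in normals B to D. It ran from -2.65 to 2.10 in tumors, and 4 tumors reached the level of normal A. The log2 fold change was -3.34 (SE 0.66, adjusted p = 3.88e-05) and -3.94 without normal A. PPP1R12A, the subunit that directs the phosphatase to myosin and is made in many cell types, was 0.60, 1.16, 1.38 and 2.01 in the normals and reached 0.67 in tumor 29. Its log2 fold change was -1.36 (SE 0.19, adjusted p = 8.13e-08), one of the smallest among the genes called. For the kinase DMPK, best known for the repeat that causes myotonic dystrophy, the log2 fold change was -1.77 (SE 0.48, adjusted p = 0.00143), and 3 tumors lay at or above normal A, the lowest normal, which was at 1.03. The highest tumor for DMPK was tumor 2, at 2.17, while tumor 29 was at -0.07.

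Of the 12 genes of the dense plaque, the cytoskeletal links and the costamere, 11 were called lower and 1 higher, with a median of -3.57. The largest fall was in DTNA, which encodes alpha-dystrobrevin of the dystrophin complex. It was 6.29, 7.36, 6.58 and 7.97 in the normals and -2.84 to 5.18 in tumors, with a median of -0.18. Tumors 29 and 15, at 5.18 and 4.41, were the highest, and the groups did not overlap. The log2 fold change was -7.00 (SE 0.88, adjusted p = 1.47e-08), and -7.35 without these 2 tumors. PGM5, or aciculin, a partner of dystrophin at muscle attachment sites, was 4.60, 5.92, 6.10 and 6.54 in the normals and -1.75 to 3.87 in tumors (median -0.23). It had a log2 fold change of -5.78 (SE 0.65, adjusted p = 1.12e-09).

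The PDZ and LIM proteins of this group hold alpha-actinin and actin together. PDLIM3 had a log2 fold change of -4.12 (SE 0.48, adjusted p = 2.73e-09), with normals between 3.56 and 4.96 and tumors between -0.95 and 2.43. LDB3, with normals from 3.51 to 5.03, was listed at its lowest value, -2.03, in 7 tumors and reached 2.81 in tumor 29. Its fitted log2 fold change of -4.57 (SE 0.67, adjusted p = 2.72e-07) depends on where that lowest value lies. HSPB7, a chaperone of muscle filaments, was listed at its lowest value in 25 tumors and reached 1.13 in tumor 29. In normals A to D it was 1.17, 4.53, 2.63 and 5.51, the widest spread among the normals described here, and the lowest normal lay only just above the highest tumor. The fitted log2 fold change of -3.34 (SE 0.36, adjusted p = 3.51e-10) likewise depends on the lowest value, and it was -4.10 without normal A and -2.66 without normal D.

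SGCA (alpha-sarcoglycan of the dystrophin complex), TGFB1I1 (the focal adhesion adaptor HIC-5) and NEXN (the actin-binding nexilin) had similar log2 fold changes, at -3.63, -3.64 and -3.51 (adjusted p from 1.23e-07 to 3.61e-06). Their highest tumors were tumor 11, tumor 21 and tumor 1, not tumor 29. SVIL, or supervillin, which ties actin and myosin to the membrane, had a log2 fold change of -2.43 (SE 0.32, adjusted p = 3.62e-08). VCL, or vinculin, a plaque protein of most adherent cells, had a log2 fold change of -1.88 (SE 0.26, adjusted p = 8.59e-08), with every tumor below every normal. For ACTN1, an alpha-actinin found in most cells, it was -1.46 (SE 0.38, adjusted p = 0.00106), and 3 tumors lay at or above the lowest normal.

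ITGA7 went the other way. The gene encodes the integrin alpha 7 chain, a laminin receptor of muscle. It was -1.23, -1.33, -1.21 and -1.28 in normals A to D and ran from -1.21 to 1.41 in tumors, with a median of 0.13. The lowest tumor lay just above the highest normal, and the normals were close together. The log2 fold change was 1.38 (SE 0.34, adjusted p = 0.000569), or 2.61-fold higher, and 1.09 in the DESeq-normalized table, where the tumors and normals overlapped. Separation of this kind, with every tumor above every normal, held for 7.63% of all genes tested. Tumors 15 and 29, at -0.53 and -0.20, were below the tumor median in this gene.

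**Figure D2:**
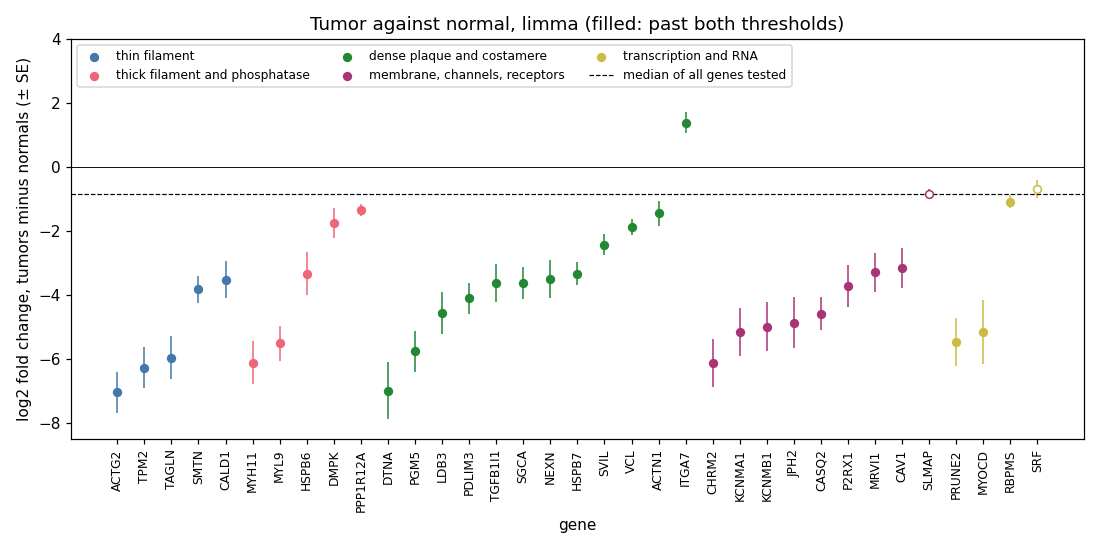
Log2 fold change of tumors against normals for each contractile gene, with its standard error from limma, grouped by role. Filled points passed both thresholds, open points (SLMAP and SRF) did not, and the dashed line is the median of all genes tested at -0.84; ITGA7 is the 1 gene above 0.

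Of the 9 genes of the membrane, channels, receptors and calcium stores, 8 were called lower, with a median of -4.59. CHRM2, the M2 muscarinic acetylcholine receptor of the detrusor, was 4.94, 7.36, 6.16 and 6.34 in the normals. It was listed at its lowest value, -0.99, in 15 of the 29 tumors and reached 4.45 in tumor 29 and 3.68 in tumor 15. The groups did not overlap. Because of the tumors at the lowest value, the fitted log2 fold change of -6.13 (SE 0.75, adjusted p = 8.18e-09) depends on where that value lies. P2RX1, the ATP-gated channel through which purinergic nerves contract the bladder, was 1.82, 3.21, 3.04 and 4.58 in the normals and -2.95 to 1.92 in tumors (median -0.14). Tumor 29 reached the level of normal A, and the log2 fold change was -3.72 (SE 0.66, adjusted p = 6.96e-06).

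The large-conductance potassium channel, which calcium and voltage open and which limits contraction, is built from the pore subunit KCNMA1 and, in smooth muscle, the accessory subunit KCNMB1. KCNMA1 was 4.08, 5.28, 4.98 and 5.72 in the normals and -3.63 to 3.16 in tumors (median -0.13). KCNMB1 was 4.09, 4.61, 4.82 and 5.36 in the normals and -3.40 to 2.37 in tumors, with a median of -0.71. In both subunits every tumor lay below every normal. The log2 fold changes were -5.17 (SE 0.76, adjusted p = 3.06e-07) for KCNMA1 and -5.00 (SE 0.77, adjusted p = 7.79e-07) for KCNMB1.

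JPH2, or junctophilin 2, which holds the calcium store close to the surface membrane, had a log2 fold change of -4.87 (SE 0.79, adjusted p = 1.83e-06). CASQ2, the calsequestrin that binds calcium inside the store, was 4.22, 4.13, 4.19 and 4.93 in the normals and was listed at its lowest value in 13 tumors, among them tumors 15 and 29. Its highest tumor was tumor 25, at 1.82, and the fitted log2 fold change was -4.59 (SE 0.52, adjusted p = 1.51e-09). CASQ2 was thus at its lowest value in the same tumors that were highest for MYH11. MRVI1, a target of the cyclic GMP kinase at the calcium store, had a log2 fold change of -3.31 (SE 0.60, adjusted p = 9.73e-06).

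CAV1, the caveolin that shapes caveolae in muscle, endothelium and fibroblasts, was 2.74, 3.15, 2.61 and 3.29 in the normals and -2.14 to 2.49 in tumors (median -0.04). Tumor 15 was the highest at 2.49 while tumor 29 was at 0.51. The log2 fold change was -3.17 (SE 0.63, adjusted p = 3.89e-05). SLMAP, a membrane-anchored protein of many tissues, was 0.16, 1.21, 0.78 and 0.88 in the normals and -0.85 to 0.32 in tumors. Its log2 fold change of -0.84 (SE 0.16, adjusted p = 1.62e-05) passed the threshold on p but not that on size. In the DESeq-normalized table it was -1.14 and without normal A -1.04, both past the 2-fold threshold.

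Of the 4 genes grouped as transcription and RNA regulators, 3 were called lower and SRF was not. MYOCD, or myocardin, the cofactor that turns the serum response factor toward smooth muscle genes, was 4.05, 5.21, 5.42 and 5.49 in the normals and -3.85 to 3.61 in tumors, with a median of -0.22. Only 2 tumors were at its lowest value, and its SD of 2.04 over the tumors was the largest of the 35 genes. Its log2 fold change was -5.16 (SE 1.00, adjusted p = 2.96e-05), with every tumor below every normal. SRF, the serum response factor itself, which acts in most cells, was 0.32, 0.89, 0.58 and 1.13 in the normals and -1.02 to 1.49 in tumors. In 7 tumors it lay at or above the lowest normal. The log2 fold change of SRF was -0.71 (SE 0.28, adjusted p = 0.0256), short of 2-fold, while in the DESeq-normalized table it passed both thresholds. PRUNE2, a gene known for its part in neural and prostate cells rather than as such a regulator, was 4.94, 5.60, 5.02 and 6.66 in the normals and -2.10 to 4.28 in tumors (median -0.22). It had a log2 fold change of -5.48 (SE 0.74, adjusted p = 6.44e-08). RBPMS, an RNA-binding protein that directs splicing in smooth muscle, had one of -1.09 (SE 0.20, adjusted p = 1.05e-05), and -0.97 without normal B, under 2-fold.

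The smooth muscle genes outside the 35 were less uniform. Of 45 found of 67 listed, 20 were called lower, 1 higher, and 24 did not pass, a share called lower near the 45.8% of all genes tested. Their median log2 fold change was -0.98, near the -0.84 of all genes. This closeness depends on the filter. Among genes above their lowest value in at least 17 samples, 18 of these smooth muscle genes were called lower. Of all 18418 genes that passed that filter, 5543 were, and their median log2 fold change was -0.0093. All 4 further thin filament genes were called lower. Among them LMOD1, a leiomodin that starts new actin filaments, had the largest fall, with normals from 4.57 to 6.55, tumors up to 3.25 and a log2 fold change of -5.43 (SE 0.60, adjusted p = 7.81e-10). The smallest was in CNN2, a calponin of many cell types, at -1.40 (SE 0.61, adjusted p = 0.0412), a call that was lost whichever normal was left out. The further genes of phosphatase and kinase control gave a different picture, with 0 of 6 called lower and 1 called higher. RHOA, the small GTPase that holds back the phosphatase and is made in nearly all cells, had a log2 fold change of 1.18 (SE 0.19, adjusted p = 9.90e-07), but 0.88 in the DESeq-normalized table, under 2-fold. PPP1R12C, a phosphatase subunit related to PPP1R12A, was the lowest of these at -0.60 (SE 0.19, adjusted p = 0.00546), short of 2-fold.

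In the dense plaque, 7 of 13 further genes were called lower and 0 higher; this share and those of the next groups are also not far from the 45.8% of all genes. SYNM, the intermediate filament protein synemin, was 3.54 to 5.71 in the normals and at most 3.20 in tumors, with a log2 fold change of -4.64 (SE 0.57, adjusted p = 7.41e-09). The LIM protein gene FHL2 was at 1.67 (SE 0.81, adjusted p = 0.0642), which did not pass. Of 17 further membrane and signaling genes, 7 were called lower. TACR2, the neurokinin receptor that contracts bladder muscle, had the largest fall at -5.19 (SE 0.58, adjusted p = 1.01e-09), with 9 tumors at its lowest value. EDNRB, an endothelin receptor, was at 0.72 (SE 0.56, adjusted p = 0.253) and did not pass. Among 5 further transcription factors 2 were called lower, led by NKX3-2, a homeobox gene of the embryonic gut and skeleton, at -3.01 (SE 0.62, adjusted p = 6.58e-05), with 16 tumors at its lowest value and -3.63 without normal B. The value was 0.61 (SE 0.31, adjusted p = 0.0749) for MRTFA, a relative of myocardin that most cells express.

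Markers of striated muscle, fibroblasts and Schwann cells were also mostly called lower in tumors, and the other lists differed. Over all genes tested, 45.8% were called lower and 10.7% higher. The part of other cell types in the differences of the contractile genes was not tested. The mean value over the 35 contractile genes was 2.90, 3.91, 3.72 and 4.44 in normals A to D and -1.07 to 2.05 in tumors, with a median of -0.24. For striated muscle, 9 of 10 markers were called lower and the mean over the list was 2.57 to 3.33 in normals and -1.28 to 0.83 in tumors. CKM, the creatine kinase of striated muscle, had a log2 fold change of -7.78 (SE 1.04, adjusted p = 5.02e-08), or -8.40 without normal A, and ACTA1, the skeletal muscle actin, one of -2.58 (SE 0.34, adjusted p = 4.45e-08). CKM had no lowest value shared between libraries. The striated marker TNNT3, in contrast, was listed at its lowest value in 23 of the 29 tumors.

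Of 8 fibroblast markers 7 were called lower and 1 higher, and the list mean was 1.91 to 2.53 in normals and -1.96 to 2.07 in tumors, so the groups overlapped. COL1A1, a chain of type I collagen, and the matrix proteoglycan gene DCN had log2 fold changes of -3.04 (SE 0.74, adjusted p = 0.000494) and -3.87 (SE 0.70, adjusted p = 1.04e-05). Of 4 Schwann cell markers 3 were called lower and 1 higher, with list means of 1.91 to 2.28 in normals and -1.44 to 1.00 in tumors. Of 3 pericyte markers 1 was called lower, but 2 in the DESeq-normalized table. The list mean was 0.72 to 1.57 in normals and -2.61 to 1.38 in tumors. PDGFRB, a receptor of pericytes and fibroblasts, was at -1.14 (SE 0.63, adjusted p = 0.101).

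The vessel, leukocyte and epithelial lists did not fall in this way. Of 6 endothelial markers 0 were called in either direction, though 1 was called lower in the DESeq-normalized table. The list means were -0.12 to 0.54 in normals and -1.95 to 2.11 in tumors. PECAM1, an adhesion protein of the vessel lining, was at -0.30 (SE 0.50, adjusted p = 0.594). Among 7 leukocyte markers 1 was called lower, the list means were -0.22 to 0.30 in normals and -1.62 to 2.70 in tumors, and PTPRC, the pan-leukocyte antigen CD45, was at 0.69 (SE 0.45, adjusted p = 0.165). Of 10 urothelial markers 6 were called higher and 1 lower, with list means of -1.75 to -0.55 in normals and -1.28 to 0.74 in tumors. EPCAM, an epithelial adhesion molecule, was higher in every tumor than in every normal, with a log2 fold change of 2.18 (SE 0.36, adjusted p = 2.32e-06). The keratin KRT20 of the surface urothelial cells was the marker called lower, at -3.75 (SE 1.09, adjusted p = 0.00288), and UPK2 was at 0.04 (SE 0.44, adjusted p = 0.934). None of the markers in these 7 lists was at a shared lowest value in a normal.

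**Figure D3:**
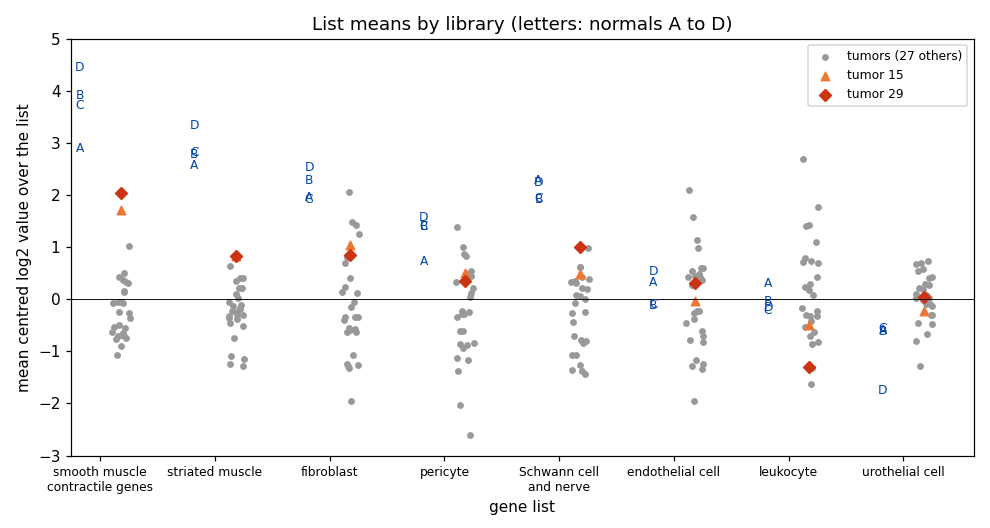
Mean centred log2 value over each gene list in every library, with normals A to D as letters and tumors as points (triangle tumor 15, diamond tumor 29). The contractile gene mean of every tumor lies below that of every normal, while the endothelial and leukocyte means of the normals fall inside the range of the tumors.

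Within the normals, most of the contractile genes were lowest in normal A and highest in normal D. Normal A was the lowest of the 4 for 31 of the 35 genes and normal D the highest for 28, while normal B was the highest for 6, CHRM2 and NEXN among them. Both held for 25 of the 35 genes, against 7.90% of all genes tested. The list mean was 2.90 in normal A and 4.44 in normal D. The urothelial list mean was -0.60, -0.61, -0.55 and -1.75 in normals A to D. The normal with the highest contractile genes was thus also the lowest in urothelial markers. Normals A to C were nearly level in urothelial markers though their contractile means differed. With 4 normals no test of this relation was made. Leaving out normal A moved the median log2 fold change of the 35 genes to -4.16, and leaving out normal D moved it to -3.47. Without normal A, 31 of the genes had every tumor below every normal, as did 29.5% of all genes.

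The tumors differed in their level of the contractile genes. Tumor 29 was the highest tumor for 22 of the 35 genes, where it was the highest tumor for 2.22% of all genes tested, and it was among the top 3 for 26. Tumor 15 was among the top 3 for 23 genes, tumor 25 for 11 and tumor 21 for 10. Tumors 29 and 15 were the 2 highest tumors for 16 genes, and both were among the top 3 for 20. Their mean values over the 35 genes were 2.05 and 1.71, the next being tumor 25 at 1.02, and the lowest tumor 6 at -1.07. In tumor 29, 19 of the 32 genes called lower lay within 2-fold of the lowest normal, and 30 within 4-fold, where 22.1% and 42.7% of all genes called lower did. These counts rest on normal A: against the lowest of normals B to D they were 5 and 23 of the 32, where 19.7% and 40.9% of all genes called lower did. MYH11 in tumor 29 was 0.77 below normal A and 1.58 below the lowest of normals B to D on the log2 scale.

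Tumors 15 and 29 were not high in every gene or list. In tumor 29, CASQ2 was at its lowest value, and DMPK, SRF and ACTN1 were at -0.07, 0.01 and 0.31. The fibroblast list mean was 0.85 in tumor 29 and 1.05 in tumor 15, within the range of the other tumors, and tumor 25 was the highest for that list at 2.07. The striated muscle list means of tumors 15 and 29, both 0.83, were the highest among tumors, but CKM, at 5.85 and 6.64, carried them. Over the other 9 striated markers the means were 0.28 and 0.18, and tumor 17 was the highest at 0.62. In the Schwann cell list tumor 29 was the highest tumor, at 1.00, with tumor 23 almost level at 0.99. Over the further smooth muscle genes tumor 15 was the highest, at 0.86. The urothelial list means of tumors 15 and 29, -0.23 and 0.04, were above those of all normals. Leukocyte markers were low in tumor 29, with a list mean of -1.30.

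Over all 24471 genes tested, 11206 were called lower, and in 6972 every tumor lay below every normal. Across the 32 contractile genes called lower, a tumor reached the lowest normal in 6 genes. This held in 13 pairs of a gene and a tumor, spread over 9 tumors. The 6 genes were HSPB6, DMPK, ACTN1, PPP1R12A, P2RX1 and RBPMS. Tumor 29 did so in HSPB6, P2RX1 and PPP1R12A, tumor 25 in HSPB6 and DMPK, and tumor 15 in HSPB6 and ACTN1. In 3 of the 13 pairs the tumor also reached the next lowest normal, which were ACTN1 in tumors 11 and 15 and DMPK in tumor 2.

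Over the 29 tumors a share of the contractile genes varied with MYH11. Of the 34 genes other than MYH11, 15 had a positive relation with it at an adjusted p of at most 0.05 (limma over 24088 genes), where 0.913% of all genes did, and 0 a negative one, where 0.0374% did. The median r was 0.573, beside -0.0093 over all genes tested, and 0.341 without tumors 15 and 29. These relations are among 104 computed between the contractile genes and MYH11, COL1A1 or PECAM1. Because tumors 29 and 15 stood apart in MYH11, each r below is followed by its value without them, since they were also the 2 tumors farthest from the MYH11 median. Without them 6 relations passed, in ACTG2, TAGLN, TPM2, MYL9, PGM5 and MYOCD, where 0.199% of all genes did.

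ACTG2 followed MYH11 most closely among the 34, with a Pearson's r of 0.966 and a rho (Spearman's) of 0.839 (permutation p = 1e-05 for both, the smallest the permutations can give). Its r was 0.887 over the 27 other tumors. CNN1 had an r of 0.970 (rho 0.890, both permutation p = 1e-05) and 0.892 over those 27. TPM2 had an r of 0.932 (rho 0.865, both permutation p = 1e-05) and 0.818 without the 2 tumors, and TAGLN 0.888 (rho 0.872, both permutation p = 1e-05) and 0.824. For MYL9 the r was 0.896 (rho 0.807, both permutation p = 1e-05) and 0.729 without them. PGM5 had an r of 0.885 (permutation p = 1e-05, rho 0.643 with permutation p = 0.00025) and 0.711. The transcriptional cofactor MYOCD had an r of 0.706 (permutation p = 1e-05, rho 0.702 with permutation p = 6e-05), and 0.674 without the 2 tumors. These 6 genes and CNN1 thus kept a positive relation with MYH11 in the tumors that held little of it.

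The relations of 9 other genes with MYH11 no longer passed without tumors 15 and 29. CHRM2 had an r of 0.598 with MYH11 (permutation p = 0.00321), but a rho of 0.0759 (permutation p = 0.694) and an r of -0.0828 without both tumors. DTNA went from 0.791 (permutation p = 2e-05, rho 0.476 with permutation p = 0.0103) to 0.462, PRUNE2 from 0.822 (permutation p = 2e-05, rho 0.611 with permutation p = 0.00054) to 0.587, and SMTN from 0.602 (permutation p = 0.0003, rho 0.414 with permutation p = 0.0269) to 0.313. KCNMA1 fell from 0.609 (permutation p = 0.00065, rho 0.440 with permutation p = 0.0168) to 0.345. In CALD1, HSPB6, PDLIM3 and KCNMB1 the r moved less, from 0.668, 0.666, 0.756 and 0.649 to 0.601, 0.573, 0.634 and 0.569, and the rho over all 29 tumors was 0.711, 0.598, 0.672 and 0.665 (permutation p for r from 1e-05 to 6e-05 and for rho from 2e-05 to 0.00086). ITGA7 and CASQ2 had an r with MYH11 of -0.167 (permutation p = 0.394, rho -0.0591 with permutation p = 0.757) and -0.152 (permutation p = 0.440, rho -0.0088 with permutation p = 0.965), neither past the threshold, and of -0.0102 and 0.135 without the 2 tumors.

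**Figure D4:**
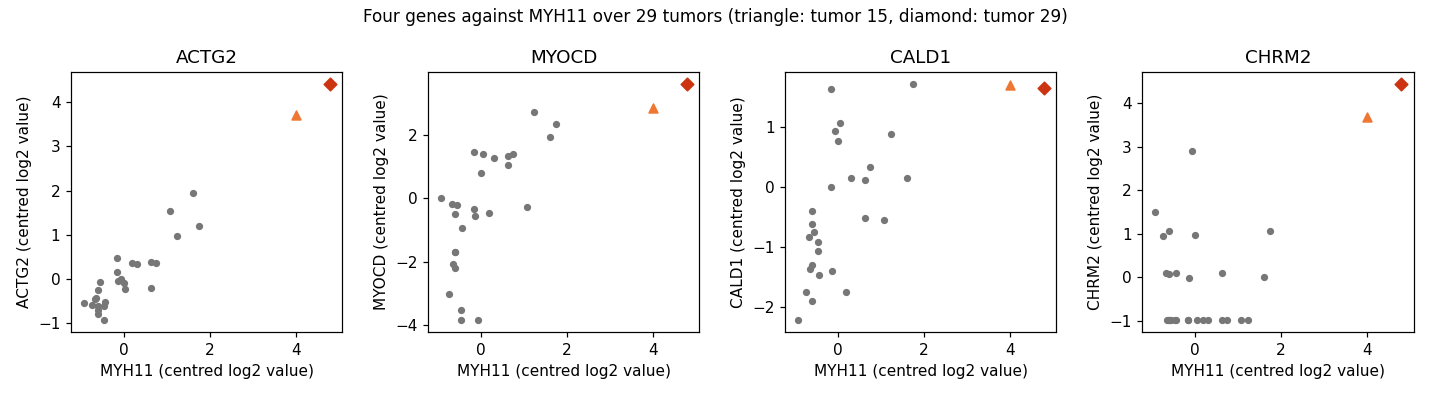
Centred log2 values of ACTG2, MYOCD, CALD1 and CHRM2 against MYH11 in the 29 tumors (triangle tumor 15, diamond tumor 29). ACTG2 and MYOCD rise with MYH11 also among the other 27 tumors (r of 0.887 and 0.674), whereas the relation of CHRM2 rests on tumors 15 and 29.

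Contractile genes also varied with COL1A1, the collagen gene taken for fibroblasts. Here 17 of the 35 genes had a positive relation that passed, where 1.34% of all genes did, and 12 without tumors 14 and 25, which lay farthest from the COL1A1 median, where 0.724% did. Without tumors 15 and 29 the number was 9, where 0.835% of all genes did. Negative relations with COL1A1 were found in 0 of the 35 genes, against 0.0913% of all genes. CALD1 had the highest r at 0.833 (rho 0.839, both permutation p = 1e-05), followed by TAGLN at 0.823 (rho 0.835, both permutation p = 1e-05) and MRVI1 at 0.813 (permutation p = 1e-05, rho 0.748 with permutation p = 2e-05). Without tumors 14 and 25 these were 0.792, 0.800 and 0.755, and without tumors 15 and 29 0.799, 0.819 and 0.781. MYH11 itself had an r of 0.649 with COL1A1 (permutation p = 2e-05, rho 0.679 with permutation p = 8e-05) and 0.619 without tumors 14 and 25, where its adjusted p of 0.0511 (limma) no longer passed. LDB3, DTNA, JPH2, KCNMA1, CHRM2 and P2RX1, on the other hand, had r values with COL1A1 from 0.0896 to 0.332, none of which passed (permutation p from 0.0776 to 0.649, rho from -0.0589 to 0.320 with permutation p from 0.0899 to 0.763); these 6 were picked out after their values were seen.

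With PECAM1, the endothelial gene, 8 of the 35 genes had a positive relation that passed, where 3.36% of all genes did, and 10 without tumors 21 and 20, the farthest from its median, where 2.73% did. A negative relation passed in 0 of the 35, against 0.382% of all genes. TGFB1I1 had the highest r at 0.816 (rho 0.809, both permutation p = 1e-05), then CALD1 at 0.783 (rho 0.784, both permutation p = 1e-05) and KCNMB1 at 0.710 (permutation p = 3e-05, rho 0.705 with permutation p = 4e-05). These were 0.779, 0.752 and 0.652 without tumors 21 and 20, and 0.826, 0.833 and 0.746 without tumors 15 and 29. Without tumors 15 and 29 the number that passed was 11, where 3.37% of all genes did, the 3 added being TPM2, MYL9 and TAGLN, whose r went from 0.507 to 0.680, from 0.495 to 0.644 and from 0.535 to 0.623 (permutation p of r over all tumors from 0.0027 to 0.00565, rho of 0.634, 0.580 and 0.597 with permutation p from 0.00031 to 0.00128). CAV1 had an r of 0.664 with PECAM1 (permutation p = 0.00011, rho 0.693 with permutation p = 7e-05) and 0.607 without tumors 21 and 20. ACTG2 and MYH11 had r values with PECAM1 of 0.288 (permutation p = 0.129, rho 0.400 with permutation p = 0.033) and 0.309 (permutation p = 0.102, rho 0.441 with permutation p = 0.0175), and did not pass. Without tumors 21 and 20 these were 0.355 and 0.431. Whether a gene's r with one of the 3 reference genes differed from its r with another was not tested.

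**Figure D5:**
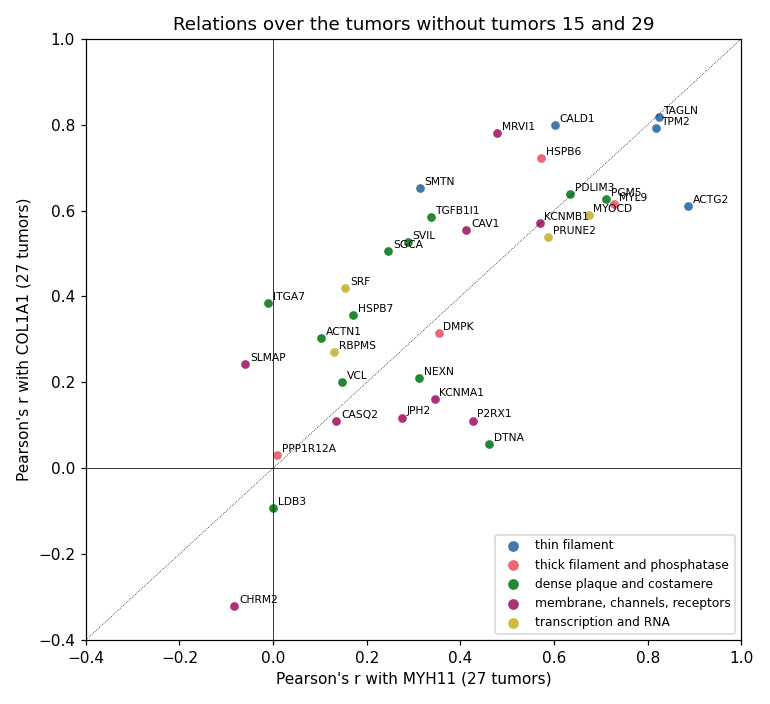
Pearson's r of each contractile gene with MYH11 (horizontal axis) and with COL1A1 (vertical axis) over the 27 tumors other than tumors 15 and 29, colored by role; the dotted line marks equal values. TAGLN and TPM2 are high on both axes, ACTG2 has the highest r with MYH11 at 0.887, and CHRM2 lies lowest on both.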

How the data were processed

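The authors removed ribosomal RNA, made ScriptSeq libraries, sequenced paired-end reads in a single batch, aligned them to CanFam3.1 with COBWeb in Strand NGS 3.1, normalized separately by TMM and DESeq, and deposited log2 values minus each gene's median. The submitters' processing notes also name DESeq2. The values are not counts and sample totals are unknown. The last, broken line of each analysed copy was dropped. The low end of many genes is a shared lowest value. A gene was tested if above it in at least 4 samples, or without one; 24471 of 25096 genes were tested.

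Groups came from the sample descriptions, and samples were numbered in accession order. The TMM table was fitted as deposited in R 4.3.3 using limma 3.58.1 (eBayes with a mean-variance trend, Benjamini-Hochberg adjustment); the design had allowed for a linear table. Calls needed an adjusted p of at most 0.05 and 2-fold. Relations over tumors were called by limma over all genes, in place of an adjustment over gene pairs that had been planned, with 100000 two-sided permutations per r or rho (Python 3.11.15, scipy 1.17.1). The fits were tested on simulated data. Alternatives were the table the authors normalized with DESeq, another centring, no trend, group weights, other filters and thresholds, ranks, the number of genes at their lowest value as a covariate, and samples left out; leaving out tumor 29, tumors 15 and 29, normal A from the distance of tumor 29 to the normals, or CKM from its list, was chosen after seeing the data.

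The genes and lists were chosen with earlier results of these data known. Every contractile gene found is named; in each role of the further smooth muscle genes, the largest rise and fall, with LMOD1 and SYNM; and a few markers per cell type. MYLK, VWF, RGS5 and S100B, also chosen, were not analysed here. The marker counts cover the markers found. These were 10 of 14 listed for urothelial cells, 10 of 13 for striated muscle and 8 of 10 for fibroblasts. They were 6 of 8 for endothelial cells, 4 of 7 for Schwann cells, 3 of 7 for pericytes and 7 of 7 for leukocytes. RefSeq was used for names only. Labels do not name an animal for each library beyond the tumors' separate dogs, so p-values measure the spread between these samples.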

Additional observations from a re-analysis of the deposited data

Results flagged for a closer look

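The search covered 56 genes, every gene named in the report but TNNT3. Each group of 4 normals was searched for a normal that lay far from the other 3 relative to their whole range. Such a search flags about 1 group in 20 by chance, and 2 genes stood out. CASQ2 was 4.93 in normal D against 4.13 to 4.22 in normals A to C, a gap that is small beside the distance to the highest tumor, at 1.82. UPK2 was -2.14 in normal D against 0.35 to 0.38 in the others. Normal D was also the highest normal for 28 of the 35 contractile genes.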

How the results depend on the processing

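The number of contractile genes called lower was 31 to 34 over 13 alternatives (31 to 33 leaving out each normal), and the 1 call higher, ITGA7, held in all of them. Genes with every tumor below every normal numbered 26 to 31 (the same range leaving out each normal), and with every tumor above every normal 1, but 0 in the DESeq-normalized table. Of the further smooth muscle genes, 17 to 24 were called lower (17 to 19 leaving out each normal), and those called higher were 1, but 0 in the DESeq-normalized table and 4 without a fold threshold. Contractile genes related to MYH11 numbered 6 to 16, with 6 without tumors 15 and 29, which are also the 2 farthest from its median, and 10 without tumor 29 alone. Those related to COL1A1 numbered 9 to 18, with 9 without tumors 15 and 29, and those related to PECAM1 6 to 11. UPK2 reversed to -0.25 in the DESeq-normalized table and -0.58 without normal D (range -0.58 to 0.26 leaving out each normal); with MYH11, r reversed for CASQ2 (0.135) and CHRM2 (-0.0828) without tumors 15 and 29, and for SLMAP (-0.0592 without them, -0.0315 by ranks). The cause of these changes was not tested. The DESeq-normalized table moved the median of all genes to -1.11 and lowered all 35 fold changes. Keeping genes above the lowest value in at least 17 samples moved that median to -0.0093, with 5543 genes called lower in place of 11206, since genes low in tumors are left out. Without a fold threshold 5603 genes were called higher in place of 2615, and 1377 were in the DESeq-normalized table. No paired analysis was possible because the labels give the normals and tumors no shared replicate numbers.

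With 4 normals, each one weighs on every fold change, and the total count of each library is unknown. Where tumors sit at a gene's lowest value, as in HSPB7, CHRM2, CASQ2, LDB3 and MYOCD, a level below it was not detectable, and the fold change depends on that value.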
